A study of Mus musculus with 20 samples.

Results

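The LAKP organoid line MTO54 was compared with the parental LAKTP organoid lines MTO68 and MTO93, as tumours grown in the mouse caecum. The comparison took all 4 LAKP tumours and all 8 parental LAKTP tumours, 12 of the 20 tumours measured. For every line there were 2 tumours of control mice and 2 of mice dosed with 10 mg of galunisertib, which blocks the kinase of TGF-beta receptor type I, 2 times per day by gavage from day 11 until sacrifice in week 5, which the labels abbreviate to LY. The labels do not spell out the genotype letters. In the usual naming of these mouse tumour organoids L stands for Lgr5-CreERT2 and T for Tgfbr2, so the named difference between the groups is the Tgfbr2 allele, and the alleles of the other letters and the Lgr5-driven Cre are shared. All 3 lines were grown under the skin first, and pieces of those tumours were then placed on the caecum of C57BL/6J mice. Whole tumour fragments were measured, so the values mix organoid-derived cancer cells with host cells that do not carry the organoid's alleles. The LAKTP line MTO140, labelled LiM and not parental, and the LAKT line MTO207, labelled parental, are used further on for comparison.

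1 line stands for LAKP and 2 for LAKTP, so every p-value describes the spread among these tumours and not among genotypes. All 4 tumours of a line also shared an array strip, so genotype, line and strip cannot be told apart. For this reason a difference was read as holding only if it passed against both LAKTP lines together, passed against MTO68 and against MTO93 separately with the same sign, and had the same sign in each LAKTP line within each treatment arm.

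TGF-beta ligands are secreted in a latent form and kept in the matrix by latent TGF-beta binding proteins. Once released they bring together the type II and type I receptor kinases, which phosphorylate SMAD2 and SMAD3, and these enter the nucleus with SMAD4. SMAD7, SKI, SKIL and the SMURF ligases restrain the signal. In the colon epithelium the pathway restrains growth, the type II receptor is often lost in colorectal cancer, and stromal fibroblasts answer the same ligands by making matrix.

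Averages of the array measures were near equal in both genotypes. The processing brings arrays towards a shared distribution, so near-equal medians and spreads say little about array quality. Array medians averaged 4.99 in LAKP and 5.01 in LAKTP on the log2 scale (exact permutation test, two-sided, p = 0.683, n = 4 and 8). The spread of values within an array, as an SD, averaged 1.64 in both genotypes (exact permutation p = 0.986). It ran from 1.60 to 1.72 in LAKP and from 1.47 to 1.82 in LAKTP. Hybridization controls averaged 10.23 in LAKP and 10.22 in LAKTP (exact permutation p = 0.941). They were lowest in the MTO68 galunisertib arrays, at 9.48 and 9.52. The 3′ minus 5′ signal averaged 0.04 and 0.03 for Gapdh and -0.65 and -0.70 for actin (exact permutation p = 0.5535 and 0.4545). 2 arrays stood apart from the rest of their groups. The first LAKP control tumour had the widest spread of its group, an SD of 1.72, and the highest pericyte, macrophage and handling stress levels among the LAKP tumours. The second MTO68 control tumour had an SD of 1.47, the lowest of the 12. The labelled epithelial tissue was borne out by its defining markers. Epcam, Cdh1, Krt8, Krt18 and Krt19 had group means between 8.86 and 11.35, and none of the 5 passed between the genotypes (smallest limma adjusted p = 0.685). No tested defining marker of fibroblasts, smooth muscle, endothelium, macrophages, neutrophils, T cells or B cells passed either (smallest limma adjusted p = 0.15).

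LAKP tumours carried a small set of genes at higher levels and a smaller set at lower levels than both LAKTP lines. The higher set was led by Prkg2, a cGMP-dependent kinase of the gut epithelium, the transporter Slc4a11, the skin keratin Krt79, the laminin chain Lama3 and the chromatin protein Hmga2. Bex1, an X-linked signalling adapter, had the largest difference of all in the other direction and was near background in every LAKP tumour. Of 15317 genes tested, 55 passed at a limma adjusted p of 0.05, which is 0.359% of the genes tested. These were 44 higher genes (0.287%) and 11 lower genes (0.0718%). Without adjustment 1497 genes had p under 0.05 (9.77%). After quantile normalization the calls were 151 higher and 68 lower. The excess of higher calls was not seen with the SD of an array as a covariate (635 higher, 646 lower), a mean for each line (195 and 208), all 20 arrays (418 and 496) or the handling stress level as a covariate (128 and 256).

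Of the 55 genes, 31 held against each LAKTP line and in both arms (0.202% of the genes tested). These were 26 higher genes (0.17%) and 5 lower genes (0.0326%), and the higher genes differed by 1.77-fold to 14.1-fold. In 30 of the 31 the 4 LAKP values lay entirely above or entirely below the 8 LAKTP values, and Myo6 was the exception. Over all genes 2.64% were without overlap. The 31 were chosen from these same values, which largely sets their separation, so it is a description and not added support. The other 24 of the 55 (0.157% of the genes tested) passed against MTO68 and kept their sign throughout, but did not pass against MTO93.

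The counts depended on single tumours. Without the second LAKP galunisertib tumour 3 genes passed and 2 held, and without the first LAKP control tumour 15 passed and 12 held. Leaving out any MTO93 tumour left 35 to 44 genes passing and 3 or 4 holding. Without the first MTO68 control tumour 35 passed and 9 held, and without the second MTO68 galunisertib tumour 42 passed and 14 held. Without the second MTO68 control tumour 65 passed and 65 held, among them all 31. None of the 31 changed sign in any of these omissions. Of the 31 genes, 28 passed the comparison with both lines in at least 10 of the 12 omissions, but 11 of the 31 met the whole rule in at least 6 of 12. Lama3, Col18a1, Junb and 2210016F16Rik met it in 1 of 12, and Col18a1, Aprt and Junb passed in 4, 5 and 6 of 12. Slc4a11 and Krt79 met the whole rule in 12 of 12. They were also the 2 genes that passed when line was fitted as a random block, each with a limma adjusted p of 0.0232.

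**Figure D1:**
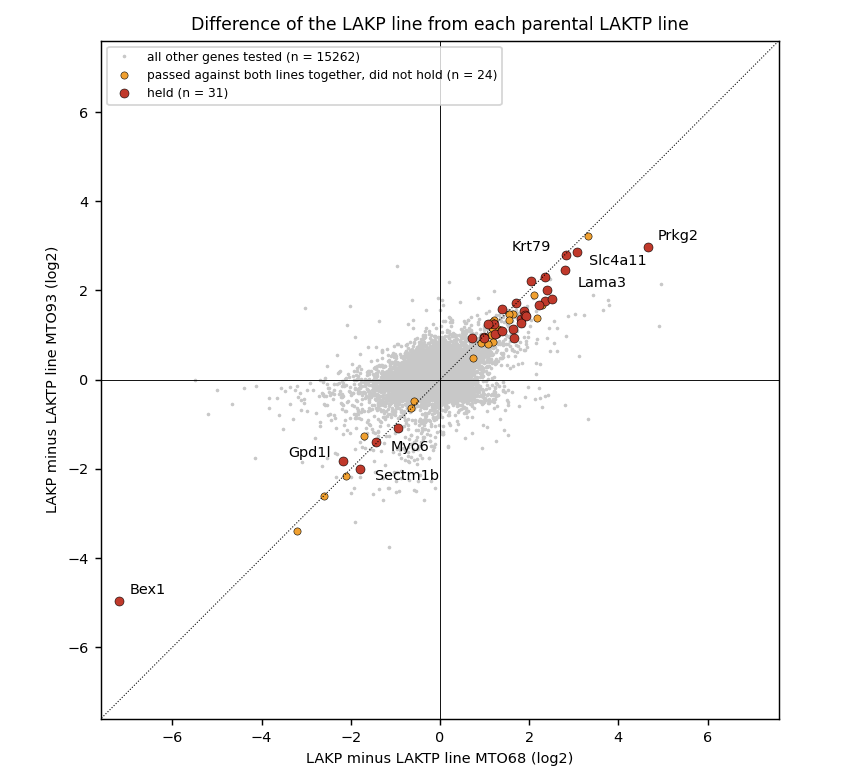
Each point is a gene, placed by its LAKP minus MTO68 (x axis) and LAKP minus MTO93 (y axis) differences on the log2 scale. Genes that held are red, those that passed against both lines together without holding are orange, and all others are grey. The 31 genes that held run from Bex1 at -7.21 and -4.97 to Prkg2 at 4.67 and 2.97, both off the dotted line of equal differences, and grey points far from 0 on the x axis alone differ from MTO68 and not from MTO93.

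The promoters of Krt79, Jag1 and Bex1 are shown because these genes stand for the findings: the keratin whose difference held in every omission, a Notch ligand that is described further on, and the gene with the largest difference. Each run is the 250 bases before the start site in RefSeq, build GRCm38.p6, minus strand, read 5′ to 3′: Krt79 at chr15:101940325-101940574, Jag1 at chr2:137116521-137116770 and Bex1 at chrX:136215514-136215763. Capitals mark CAGAC, a SMAD-binding box, TGANTCA, an AP-1 site, or GGAATG, a TEAD site, on either strand.
Krt79: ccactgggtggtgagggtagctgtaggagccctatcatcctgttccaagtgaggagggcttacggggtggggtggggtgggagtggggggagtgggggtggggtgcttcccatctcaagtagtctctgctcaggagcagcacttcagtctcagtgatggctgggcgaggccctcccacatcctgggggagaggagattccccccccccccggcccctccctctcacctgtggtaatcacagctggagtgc
Jag1: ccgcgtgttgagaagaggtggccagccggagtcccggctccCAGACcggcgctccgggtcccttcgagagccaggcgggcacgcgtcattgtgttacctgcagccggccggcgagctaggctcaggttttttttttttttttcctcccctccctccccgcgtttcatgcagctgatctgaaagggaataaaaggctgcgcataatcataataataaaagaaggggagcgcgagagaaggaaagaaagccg
Bex1: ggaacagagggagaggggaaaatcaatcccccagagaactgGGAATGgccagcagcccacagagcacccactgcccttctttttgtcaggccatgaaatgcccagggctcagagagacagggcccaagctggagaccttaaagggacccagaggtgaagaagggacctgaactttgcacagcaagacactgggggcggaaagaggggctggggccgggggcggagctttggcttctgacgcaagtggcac
The Jag1 run holds 1 CAGAC and the Bex1 run 1 GGAATG, and these letters do not occur in the Krt79 run. Of the 31 genes that held, 24 had a promoter entry. CAGAC was in 7 of the 24 and in 42.1% of 27025 promoters of the same length. TGANTCA was in 2 of the 24 and in 6.87% of all, and GGAATG in 7 of the 24 and in 12.6% of all. A match describes letters and not a bound site.

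Structural genes of epithelium and basement membrane were among the higher genes. Krt79, a type II keratin of hair follicle and sebaceous ducts, measured 8.70 and 8.45 in the LAKP control tumours and 7.83 and 8.57 in the LAKP galunisertib tumours. In the 8 LAKTP tumours its lowest, median and highest values were 5.12, 5.61 and 6.08. The lowest LAKP tumour stood 1.75 above the highest LAKTP tumour on the log2 scale. The difference was 2.81 (SE 0.20, 7.02-fold, limma adjusted p = 5.73e-05), and it was 2.83 against MTO68 and 2.80 against MTO93.

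Lama3, the alpha chain of the laminin that anchors epithelium to its basement membrane, measured 11.06 and 10.05 in the LAKP control tumours and 9.95 and 9.93 in the galunisertib tumours. LAKTP values ran from 6.23 through a median of 7.71 to 8.38, without overlap. The difference was 2.63 (SE 0.37, 6.20-fold, limma adjusted p = 0.00962). The first LAKP control tumour stood above the other 3 LAKP tumours, which lay close together.

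Antxr2, a cell surface receptor that binds collagen and laminin, measured 10.04, 9.79, 9.14 and 9.11 in the LAKP tumours, controls first, against 6.31 to 7.88 in LAKTP. Its difference was 2.17 (SE 0.31, limma adjusted p = 0.012). Col18a1, a basement membrane collagen and the source of endostatin, measured 7.88, 8.03, 7.74 and 7.76 against 6.07 to 7.24, a difference of 1.30 (SE 0.22, limma adjusted p = 0.0292). Neither gene's groups overlapped, and the lines of LAKTP differed for Col18a1, with 6.07 to 6.35 in MTO68 and 6.76 to 7.24 in MTO93.

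Some membrane proteins were among the higher genes. Cavin1, the coat protein of caveolae, measured 8.18, 8.08, 7.55 and 7.87 in LAKP against 5.84 to 6.81 in LAKTP, a difference of 1.59 (SE 0.21, limma adjusted p = 0.00683). Its partner in caveolae, Cav1, passed with a difference of 1.97 (limma adjusted p = 0.0437) but did not hold against MTO93. Tm4sf1, a surface protein of endothelium and carcinoma cells, measured 10.95, 10.31, 10.04 and 10.23 against 7.40 to 9.38, a difference of 1.95. The tetraspanin Cd82 differed by 1.54, and the growth hormone receptor Ghr by 1.23.

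Among signalling genes, Prkg2 had the largest rise. Its values were 10.77 and 9.10 in the LAKP control tumours and 9.57 and 10.24 in the LAKP galunisertib tumours, against a lowest, median and highest of 4.59, 6.28 and 7.25 in LAKTP. The difference of 3.82 (SE 0.53, 14.1-fold, limma adjusted p = 0.00962) was 4.67 against MTO68 and 2.97 against MTO93, and the LAKTP lines themselves differed. MTO68 ran from 4.59 to 5.93 and MTO93 from 6.63 to 7.25.

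3 secreted or membrane-bound ligands held. Wnt7b, a Wnt ligand, measured 8.75, 7.50, 7.69 and 7.99 in LAKP, controls first, against 4.98 to 6.32 in LAKTP. Jag1, which activates Notch receptors on neighbouring cells, measured 9.31, 8.24, 8.55 and 8.57 against 6.40 to 7.29. Bmp8b, a BMP-type member of the TGF-beta family, measured 8.88, 7.85, 7.78 and 7.98 against 5.99 to 7.01. The LAKP tumours were above every LAKTP tumour for all 3 ligands. The differences were 2.06 for Wnt7b (SE 0.26, limma adjusted p = 0.00683), 1.71 for Jag1 (SE 0.20, limma adjusted p = 0.00683) and 1.67 for Bmp8b (SE 0.22, limma adjusted p = 0.00838). Jag1 differed by the same 1.71 from each LAKTP line. Notch3, a Notch receptor prominent on pericytes, passed at 1.07 (limma adjusted p = 0.0138) without holding against MTO93.

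Regulators of transcription were Hmga2 and Junb. Hmga2, an embryonic chromatin protein that TGF-beta can induce in other epithelial cells, measured 9.38, 7.83, 8.35 and 8.77 in LAKP against 5.75, 6.27 and 6.77 as lowest, median and highest in LAKTP. Its difference was 2.33 (SE 0.29, 5.01-fold, limma adjusted p = 0.00683), with no overlap. Junb, an AP-1 factor and immediate early gene, measured 7.21, 6.40, 6.23 and 6.38 against 4.90 to 5.75, a difference of 1.16 (SE 0.19, limma adjusted p = 0.0265). Junb belongs to the handling stress list, of which 9 of 12 members had a higher mean in LAKP (47.2% of all genes did). That list's level ran from 0.18 to 0.82 in LAKP and from -0.81 to 0.26 in LAKTP. With the handling stress level as a covariate all 31 genes kept their sign and still passed, and 6 of them still met the whole rule. That level includes Junb and averaged 0.37 in LAKP and -0.18 in LAKTP. The fit therefore cannot separate handling stress from line, and a cause was not tested.

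Transport and metabolism were led by Slc4a11, a membrane transporter related to bicarbonate carriers. It measured 8.63 and 7.98 in the LAKP control tumours, 7.69 and 7.44 in the galunisertib tumours, and 4.46, 4.96 and 5.55 as lowest, median and highest in LAKTP. The gap between the groups was 1.89, and the difference 2.96 (SE 0.20, 7.80-fold, limma adjusted p = 5.73e-05). Acsbg1, which activates long-chain fatty acids, measured 7.47, 6.28, 5.74 and 6.12 in LAKP against 4.31 to 5.14, a difference of 1.71. Adssl1, an enzyme of AMP synthesis from muscle, differed by 1.49, and Aprt, which salvages adenine, by 0.82.

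Of the remaining higher genes, Dynap measured 6.81, 6.22, 5.22 and 6.61 in LAKP and 3.59 to 4.43 in LAKTP, where 3 of 8 values were above the 4.16 level taken as the floor for testing. Its difference of 2.21 (SE 0.25, limma adjusted p = 0.00683) therefore rests on LAKTP values near background. Tnnt2, the cardiac troponin T gene, measured 8.52, 6.66, 6.30 and 7.09 against 4.62 to 5.54, a difference of 2.13. Acap1, a regulator of ARF GTPases, measured 9.29, 8.85, 8.15 and 8.56 against 6.36 to 7.63, a difference of 1.68. Vamp5 differed by 1.39, Shf by 1.25, Fzd10os by 1.13, N4bp2 by 0.97 and the cation channel Trpv4 by 0.96.

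**Figure D2:**
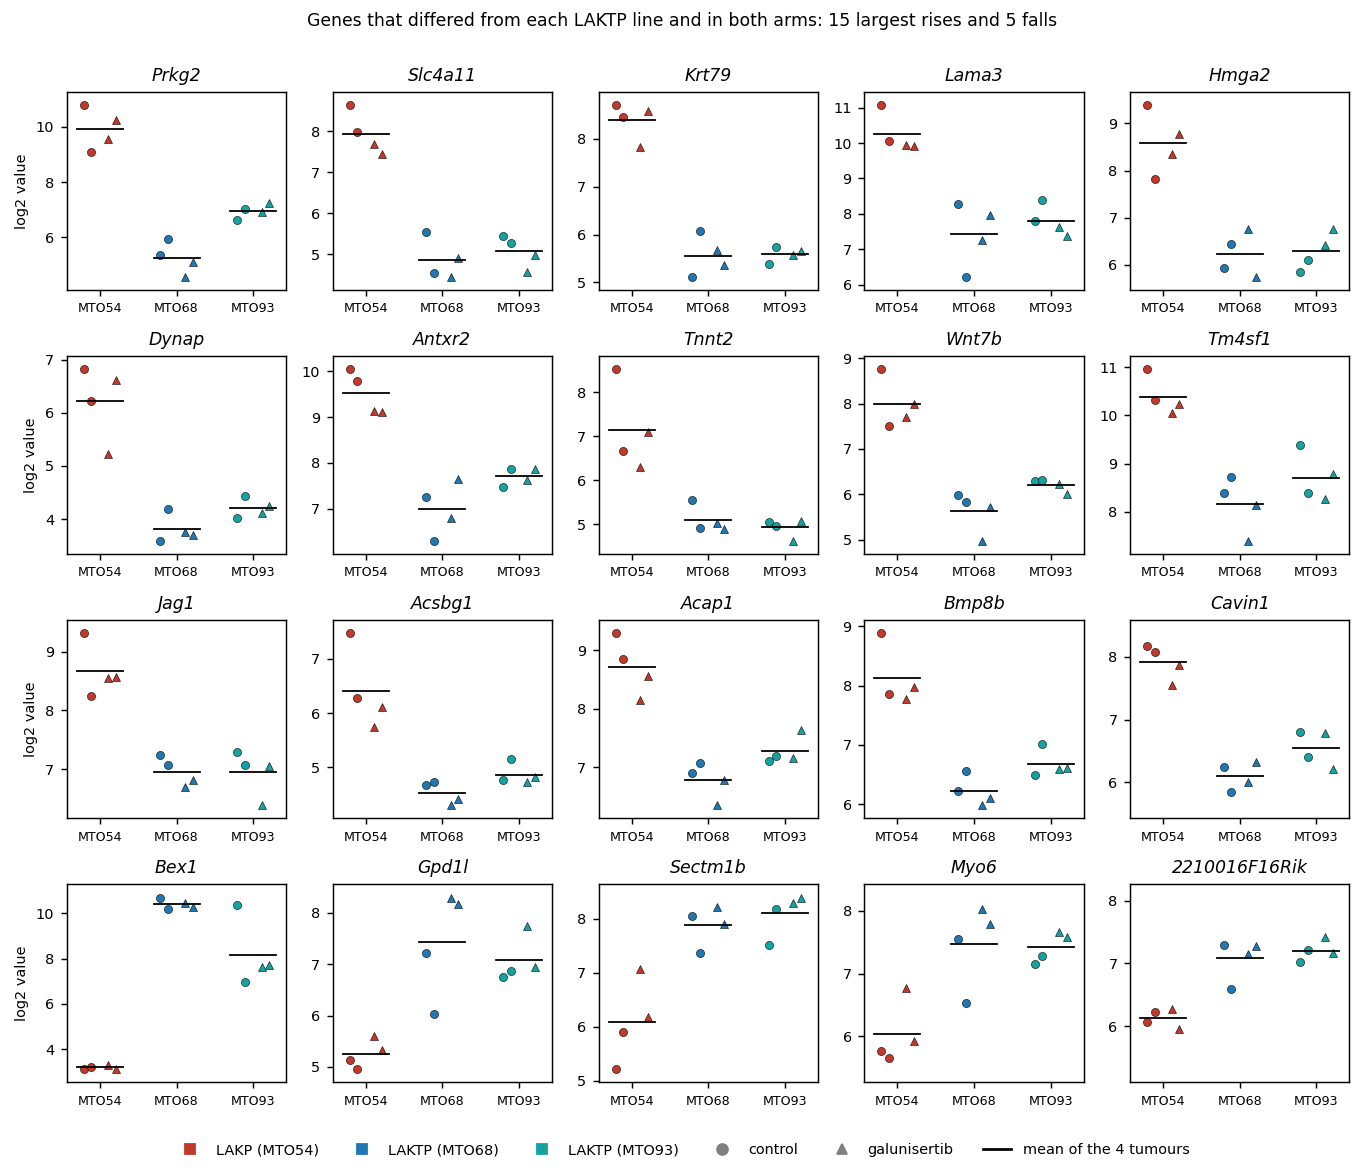
Log2 values per tumour of the 15 genes with the largest rise and the 5 genes that were lower, by line, with circles for control, triangles for galunisertib and a bar for the mean of the 4 tumours. LAKP values are separate from both LAKTP lines in every panel except Myo6, where the highest LAKP tumour, at 6.77, is above the lowest LAKTP tumour, at 6.53.

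The 5 lower genes included Bex1 and Gpd1l. Bex1 measured 3.14 and 3.22 in the LAKP control tumours and 3.30 and 3.14 in the LAKP galunisertib tumours, all below the 4.16 floor. In LAKTP it was bright, with 10.20 to 10.70 in MTO68 and 6.97 to 10.39 in MTO93. The fitted difference was -6.09 (SE 0.73, limma adjusted p = 0.00683). Taken against the floor, Bex1 was at least 35.0-fold lower in LAKP. The LiM-labelled LAKTP line MTO140 had a mean of 3.57 for Bex1 and the LAKT line MTO207 one of 10.16, so a low level was not particular to LAKP.

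Gpd1l, a glycerol-3-phosphate dehydrogenase, measured 5.13, 4.96, 5.61 and 5.32 in LAKP against 6.03, 7.08 and 8.30 as lowest, median and highest in LAKTP, a difference of -2.001 (SE 0.28, limma adjusted p = 0.00962). Sectm1b, an immune ligand, measured 5.22, 5.89, 7.06 and 6.18 against 7.35 to 8.39, a difference of -1.90. Myo6, the myosin that moves towards the minus end of actin and works at the microvilli, differed by -1.42, and its groups overlapped. 2210016F16Rik, a gene without an assigned role, measured 5.95 to 6.28 in LAKP and 6.58 to 7.42 in LAKTP, a difference of -1.01.

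Other probe sets of the same genes gave the same direction, some with far smaller differences. Of the 31 genes, 18 had 23 further probe sets, of which 21 passed the brightness filter. All 21 had the sign of the probe set used and 14 were without overlap (2.64% of all genes were). Further probe sets of Lama3, Tm4sf1 and Fzd10os differed by 0.12, 0.29 and 0.29, with overlap. The probe sets used for these genes differed by 2.63, 1.95 and 1.13. The genes were chosen from the same tumours, which largely sets this, so it is a description and not added support.

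The difference between the genotypes was next taken within each arm. In control tumours 63 genes passed between LAKP and LAKTP (0.411%), and in galunisertib tumours 101 (0.659%). The difference between the arms itself passed for 0 genes by limma, with 935 genes at an unadjusted p under 0.05 (6.1%), but for 1909 genes without the first MTO68 control tumour. Of the 31 genes that held, 11 also passed within each arm, namely Prkg2, Slc4a11, Krt79, Dynap, Wnt7b, Acap1, Bmp8b, Cavin1, Bex1, Col18a1 and Fzd10os. Krt79 differed by 2.99 in control tumours and 2.64 in galunisertib tumours, Wnt7b by 2.01 and 2.10, and Jag1 by 1.61 and 1.82.

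Among the 31 genes the smallest p for a change of the difference with treatment were those of N4bp2 and Antxr2, at -0.63 and -1.06, and neither passed (limma adjusted p = 0.651). The genes with the smallest p for a change between arms over the whole array were H4c9, Pgap1, Cxcl5, Sh2d5 and Hilpda, with galunisertib arm minus control arm values of -1.23, -1.68, -3.40, -1.96 and -2.13, none of which passed (limma adjusted p = 0.651). Without the first MTO68 control tumour all 5 passed.

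The parental LAKTP lines differed from each other for 2225 genes (14.5%), LAKP differed from MTO68 for 1466 genes (9.57%) and from MTO93 for 38 (0.248%). Among the 31 genes Prkg2, Col18a1 and Bex1 differed between MTO68 and MTO93. The rule for holding favours genes on which the LAKTP lines are alike, so this count was largely set by the choice of genes. Other lines set against the same 8 LAKTP tumours, which therefore share these controls, gave 522 passing genes for the LiM-labelled LAKTP line MTO140 (3.41%) and 9 for the LAKT line MTO207 (0.0588%).

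Compared with the lines outside the main contrast, 17 of the 31 genes also passed in the same direction against both MTO140 and MTO207 (0.111% of the genes tested held and did so). They included Krt79, Lama3, Hmga2, Wnt7b, Jag1, Cavin1, Gpd1l and Sectm1b. LAKP had the highest mean of the 5 lines for all 26 higher genes and the lowest for all 5 lower genes. The choice of genes fixed its place relative to MTO68 and MTO93, and did not use MTO140 or MTO207. Genes that did not pass against MTO140 included Prkg2, Antxr2, Tnnt2, Col18a1 and Bex1 (limma adjusted p = 0.320, 0.230, 0.202, 0.646 and 0.641). Bmp8b and Dynap were among those that did not pass against MTO207 (limma adjusted p = 0.339 and 0.228). Prkg2 averaged 9.40 in MTO140 and 8.05 in MTO207, Krt79 7.16 and 6.47, Antxr2 8.94 and 7.57, and Hmga2 4.83 and 6.84. For 22 of the 26 higher genes the MTO140 mean was also above the LAKTP mean, and for 21 the MTO207 mean was. The shares of all genes tested that passed or ranked so against MTO140 and MTO207 are not given here. The counts among the 31 and the 26 genes therefore have no background and are not read as a trait of these genes.

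None of the 21 tested genes of the TGF-beta ligand, receptor and SMAD list passed. Of these 21, 17 had a higher mean in LAKP (47.2% of all genes tested did), 13 were higher in all 4 comparisons of group means (9.05% of all) and 5 were without overlap above LAKTP (1.57% of all). The list's median difference was 0.21 and that of all genes -0.01. Because the tumours were measured whole, fewer cells of a type and less RNA per cell cannot be told apart for these and all later genes.

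Among the ligands, Tgfb1 measured 7.81 and 6.94 in the LAKP control tumours and 6.79 and 7.05 in the galunisertib tumours, against 5.41 to 6.67 in LAKTP. LAKP values were above all LAKTP values, and the difference of 1.24 (SE 0.24) missed the threshold (limma adjusted p = 0.0556). Tgfb2 differed by 0.21 and Tgfb3 by 0.83, both with overlapping values. Of the latent binding proteins, Ltbp3 measured 9.59, 9.09, 8.56 and 9.27 in LAKP against 6.49 to 8.51, a difference of 1.46 (SE 0.33, limma adjusted p = 0.0864). Ltbp1 differed by -2.13 from MTO68 and by 0.02 from MTO93.

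At the receptors, Tgfbr2 measured 8.39 and 7.77 in the LAKP control tumours, 6.90 and 7.12 in the LAKP galunisertib tumours, and 6.72 to 8.81 in LAKTP. Its difference was -0.44 (SE 0.38, limma adjusted p = 0.883), so the RNA of the gene named in the genotypes did not separate them. Where its probes lie relative to a deleted part is not given in the sources used here, and host cells also express the receptor, so this level does not check the labels. Tgfbr1 differed by 0.80, the co-receptor Tgfbr3 by 0.06, Acvrl1 by 0.09 and endoglin (Eng), an endothelial co-receptor, by 0.50. Eng had no overlap between the groups, and no receptor passed.

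The signal transducers Smad2, Smad3 and Smad4 differed by 0.18, 0.61 and 0.20, and the SMAD2 anchor Zfyve9 by -0.17. Inhibitors of the pathway were higher in mean: Ski by 0.92, Skil by 0.76, Smurf1 by 1.04, Smurf2 by 0.47, Smad6 by 0.13 and Smad7 by 0.21. Ski and Smurf1 had no overlap between the groups. Nrros, which holds latent TGF-beta on myeloid cells, differed by -0.35. None of these genes passed.

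**Figure D3:**
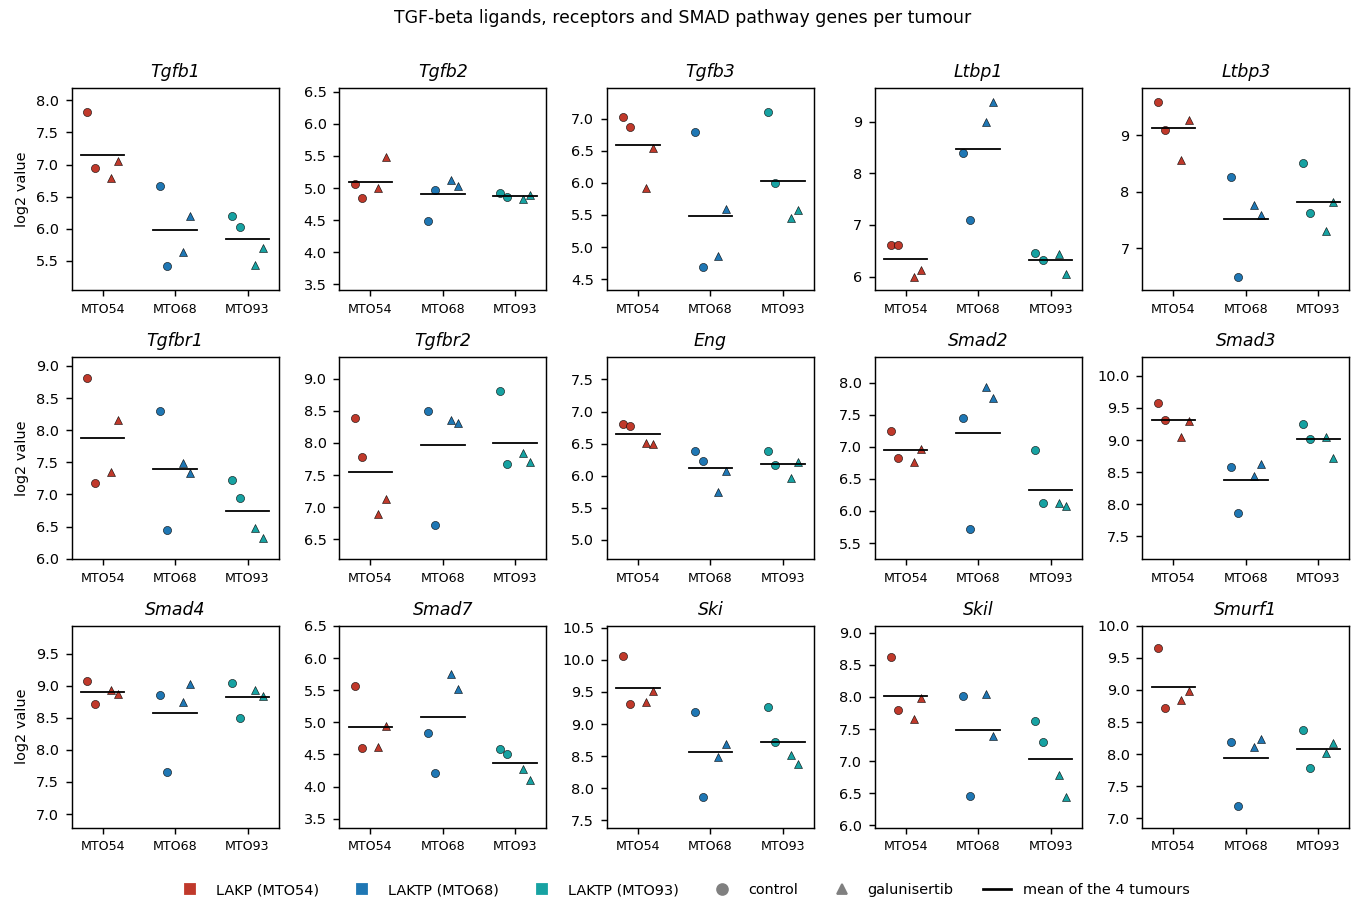
Log2 values per tumour of 15 genes of the TGF-beta ligand, receptor and SMAD list, by line, with circles for control, triangles for galunisertib and a bar for the mean of the 4 tumours. Tgfb1, Ltbp3, Eng, Ski and Smurf1 are above all LAKTP tumours in LAKP, and Tgfbr2 overlaps, with 6.90 to 8.39 in LAKP and 6.72 to 8.81 in LAKTP.

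Of 29 tested TGF-beta target genes none passed, 22 had a higher mean in LAKP (47.2% of all genes did) and the median difference was 0.22. Ccn2, a matricellular protein made by activated fibroblasts, measured 8.02, 7.09, 7.12 and 7.46 in LAKP against 4.85 to 7.35 in LAKTP, a difference of 1.31 (SE 0.34, limma adjusted p = 0.14) with overlap. Spsb1, an adapter that limits the type II receptor, differed by 1.34 (SE 0.31, limma adjusted p = 0.0869), also with overlap. The EGF receptor ligand Hbegf and the cell cycle inhibitor Cdkn2b differed by 1.48 and 0.83, without overlap.

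In the BMP and activin list of 19 tested genes none passed, and the median difference was 0.07. Inhba, the subunit of activin A, measured 10.16, 8.02, 8.58 and 9.25 in LAKP against 4.86 to 7.83 in LAKTP. Its groups did not overlap, and its difference of 2.21 (SE 0.53) did not pass (limma adjusted p = 0.111).

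Most matrix and stromal genes had a higher mean in LAKP, and few passed. Of 25 collagen and matrix genes, 24 had a higher mean (47.2% of all genes tested did). 17 were higher in all 4 comparisons of group means (9.05% of all). The median difference was 0.73, 0.76 against MTO68 and 0.66 against MTO93. The list's level ran from -0.02 to 1.17 in LAKP, highest in the first control tumour. In LAKTP it ran from -0.91 to 0.66, so the groups overlap. 1 gene passed, Col18a1. Col4a1, a basement membrane collagen, measured 11.59, 10.84, 10.93 and 11.26 against 9.42 to 10.79, a difference of 1.01 (limma adjusted p = 0.15). Col1a1, the main fibrillar collagen chain, differed by 0.87, Fn1 by 1.20 and Eln by 1.26, all with overlapping values.

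The 5 pericyte genes were higher in all 4 comparisons, Notch3 among them, and the list's level ran highest in the first LAKP control tumour. Of 17 fibroblast markers 13 had a higher mean with a median of 0.32, and of 15 endothelial genes 13 did with a median of 0.34, and none passed. The levels of both lists overlapped between the groups. Over all genes 47.2% had a higher mean and 9.05% were higher in all 4 comparisons. Smooth muscle genes had a median of -0.03 in control tumours and 1.37 in galunisertib tumours, and none of the 9 passed. With the fibroblast level as a covariate, 16 of the 31 genes still passed and all 31 kept their sign. The fibroblast level averaged 0.25 in LAKP and -0.13 in LAKTP, so the fit cannot separate it from line.

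Interferon and antigen presentation genes had lower means in LAKP. All 15 type I interferon genes were lower in mean (52.8% of all genes were), 10 were lower in all 4 comparisons (11.3% of all) and none passed. Their median difference was -1.06, with -1.84 against MTO68 and -0.55 against MTO93. Rsad2, an antiviral enzyme, measured 6.09, 6.83, 7.18 and 7.13 in LAKP against 7.29 to 9.70, a difference of -1.67 (SE 0.45, limma adjusted p = 0.15). Oas3, a sensor of double-stranded RNA, differed by -1.04 (limma adjusted p = 0.124), and both genes were without overlap (1.06% of all genes lay entirely below).

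Interferon-gamma genes had a median of -0.94 and MHC class I presentation genes one of -0.91, where all 7 tested were lower in mean. In control and galunisertib tumours the medians were -1.34 and -0.2 for interferon-gamma genes and -1.3 and -0.515 for MHC class I genes. Of the 13 interferon-gamma genes tested, 4 were lower in all 4 comparisons. That list's level ran from -1.67 to 0.62 in LAKP and from -0.16 to 0.76 in LAKTP, so the groups overlap. Psmb8, an immunoproteasome subunit, differed by -1.10. T cell genes had a median of -0.22, and all 13 were lower in mean without any passing. With the type I interferon level as a covariate, 2 of the 31 genes still passed and all 31 kept their sign. The type I interferon level averaged -0.75 in LAKP and 0.38 in LAKTP, so the fit cannot separate it from line.

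**Figure D4:**
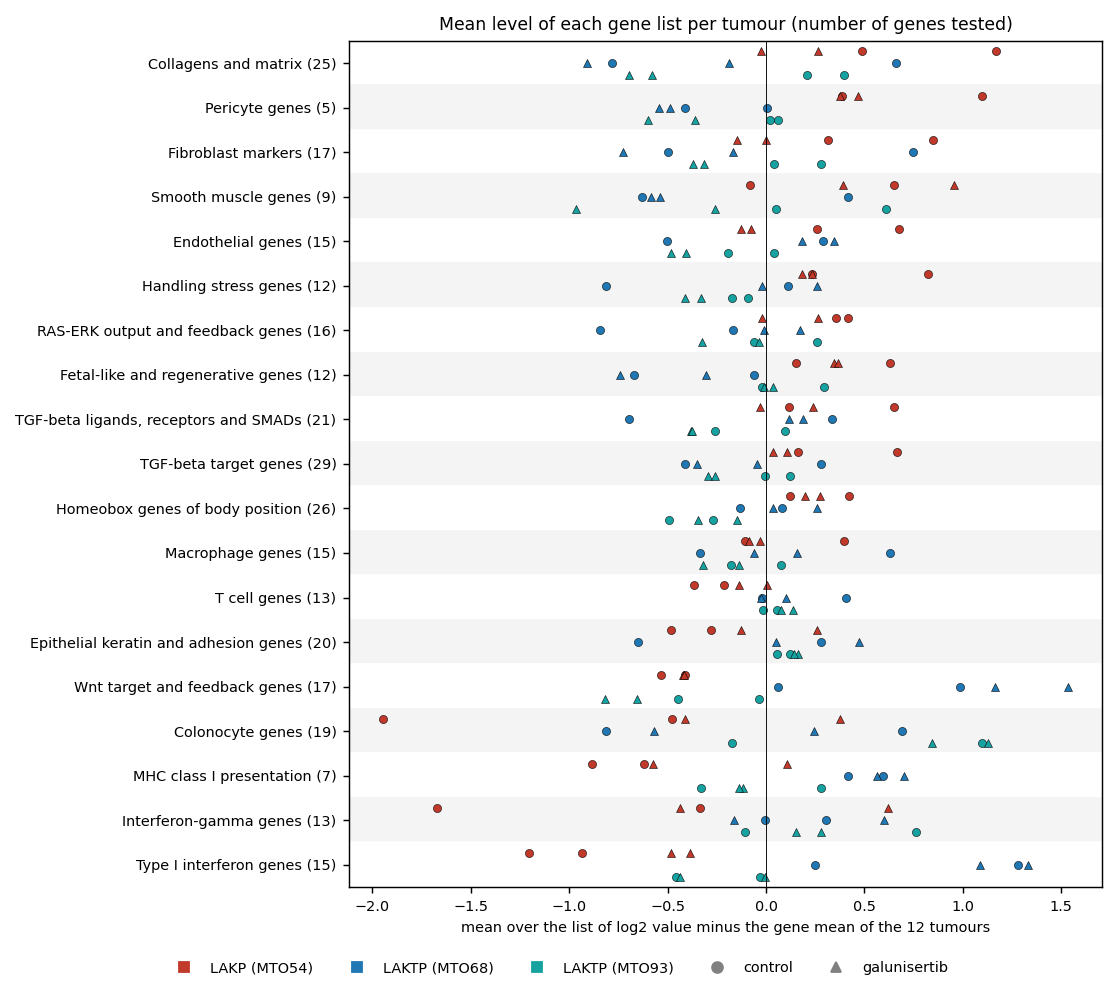
Level of each gene list per tumour, as the mean of its genes' deviations from their own mean over the 12 tumours on the log2 scale, by line, with circles for control and triangles for galunisertib. The type I interferon level ran from -1.21 to -0.39 in LAKP and from -0.46 to 1.33 in LAKTP, so the groups overlap.

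Epithelial identity genes were divided. The 20 keratin and adhesion genes had a median of -0.03 and none passed. Vil1, an actin bundler of the brush border, measured 5.29, 6.77, 8.24 and 6.07 in LAKP against 7.78 to 9.29, a difference of -1.99 (SE 0.40, limma adjusted p = 0.0669) with overlap. All 19 colonocyte genes were lower in mean, with a median of -0.82, of -0.40 against MTO68 and of -1.29 against MTO93, and none passed. The median was -1.20 in control and -0.45 in galunisertib tumours. The list's level was -1.94 in the first LAKP control tumour and -0.48, 0.38 and -0.41 in the others, which lay within the LAKTP range of -0.81 to 1.13. Of 12 goblet cell genes 11 were lower in mean, and the median was -0.50. Over all genes 52.8% were lower in mean.

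Fetal-like and regenerative genes had a median of 0.59. Tnfrsf12a, the TWEAK receptor, passed with 10.71, 9.45, 9.87 and 10.00 in LAKP against 7.87 to 8.94, a difference of 1.51 (SE 0.27, limma adjusted p = 0.0378), but did not hold against MTO93. Anxa1 measured 9.81 to 10.67 in LAKP against 6.56 to 9.54, and did not pass. Of 26 homeobox genes of body position 24 had a higher mean (47.2% of all genes tested did). Hoxa3 passed at 1.44 (limma adjusted p = 0.0396) but did not hold against MTO93.

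Wnt target and feedback genes had a median of -1.04 against MTO68 and -0.01 against MTO93, so their difference followed 1 LAKTP line. Prox1, a Wnt target in colon tumours, measured 4.04 to 4.74 in LAKP, with differences of -5.21 from MTO68 and -0.77 from MTO93. Lgr5, the stem cell gene whose promoter drives the Cre, differed by -1.09 (limma adjusted p = 0.695). Cd44 differed by 1.36 and had no overlap, without passing.

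Other genes that passed without holding against MTO93 included Cpe, a prohormone-processing enzyme, at 3.27 (SE 0.55, limma adjusted p = 0.0266), and Lcn2, an iron-scavenging acute phase protein, at -3.30 (SE 0.53, limma adjusted p = 0.0225). Aldh1a3, which makes retinoic acid, measured 11.78, 10.61, 10.95 and 11.25 in LAKP against 5.21 to 9.95, and its difference of 3.54 (SE 0.76) did not pass (limma adjusted p = 0.0794).

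Some chromosomes held more genes lying to one side than others, which is given as a description. On chromosome 9, which holds Tgfbr2, the lower genes Gpd1l and Myo6 and the higher gene Acsbg1, 629 of 846 genes had a lower mean in LAKP (74.3%), and 34 lay entirely below LAKTP, 4.02% against 1.06% of all genes. Over its 196 genes with a mean above 7, the 4 LAKP tumours lay between -0.24 and -0.18 on the log2 scale relative to the LAKTP mean and to all chromosomes of the tumour, and LAKTP tumours between -0.10 and 0.04. The difference of these genes was -0.40 against MTO68 and -0.01 against MTO93, beside -0.15 and 0.21 for all genes this bright. Chromosome 16 had a like share of lower means, 384 of 517 genes (74.3%), with a median of -0.21 over its bright genes beside -0.19 on chromosome 9, and 9 genes entirely below (1.74%). Genes entirely above LAKTP were 28 of 800 on chromosome 8 (3.5%) and 31 of 957 on chromosome 5 (3.24%), against 1.57% of all genes. Those entirely below were 1 on chromosome 8 (0.125%) and 6 on chromosome 5 (0.627%).

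**Figure D5:**
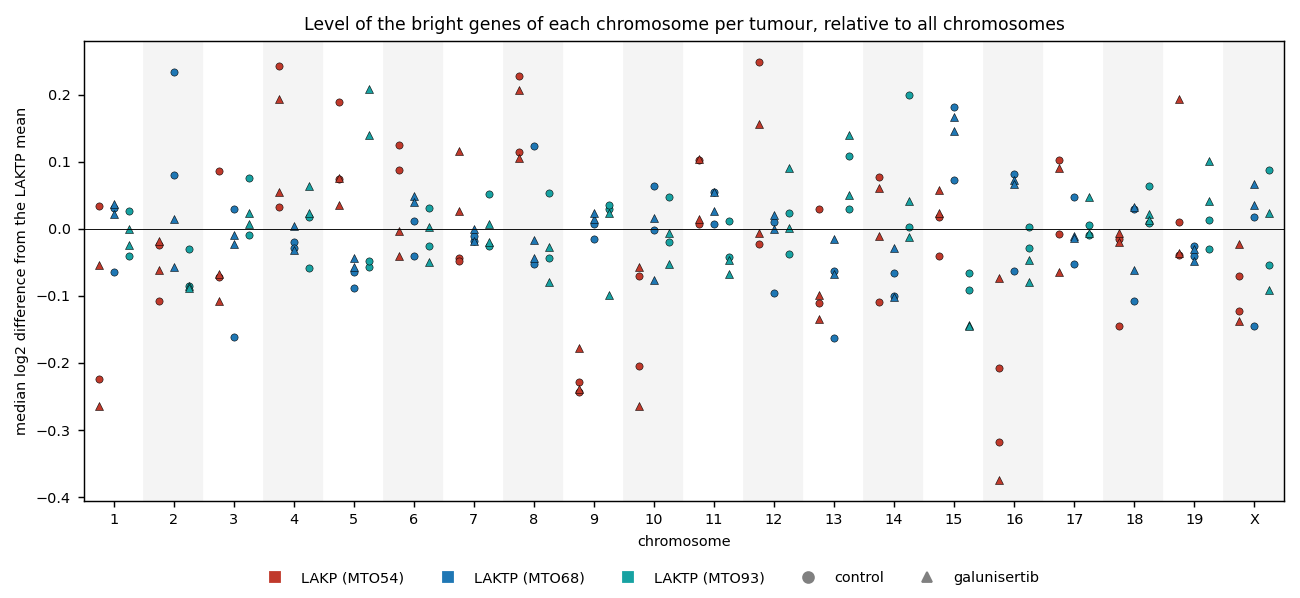
Median level of the brighter genes of each chromosome per tumour, relative to the LAKTP mean and to all chromosomes of that tumour on the log2 scale, so that LAKTP tumours lie near 0 by construction. All 4 LAKP tumours lie below every LAKTP tumour on chromosome 9, and on chromosome 8 they run from 0.11 to 0.23 and overlap with LAKTP.

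Gpd1l is the 4th measured gene before Tgfbr2 in chromosome order. Its nearer neighbours Osbpl10, Stt3b and Gadl1 differed by -0.34, -0.44 and 0.09, and none passed. On the other side Rbms3, the next measured gene, differed by -1.36, and Eomes, the 6th, by 1.24 without overlap, and neither passed. Of the Y-linked genes, Kdm5d and Uty were lower in all LAKP tumours than in any LAKTP tumour, by 0.85 and 0.49, without passing. Over all genes 1.06% lay entirely below. Eif2s3y, also Y-linked, differed by -1.88 from MTO68 and by -0.80 from MTO93 and did not pass (limma adjusted p = 0.227). The sex of mice or lines is not given in the sources used here.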

How the data were processed

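Whole-tumour RNA was measured on Affymetrix arrays. The deposited values are log2 expression per probe set, made by RMA in affy per the submitters' processing notes, and no version of either is given in the sources used here. RMA brings arrays towards a shared distribution, so a shift of all genes may be removed and its true size cannot be read. The deposited values did not share 1 distribution. In LAKTP the array SDs ran from 1.47 to 1.82 and the medians from 4.93 to 5.10. Of 45141 probe sets, 28898 have 1 gene symbol in the platform annotation, 551 several and 15588 none. Genes were represented by the probe set of highest mean, and 15317 of 17097 genes exceeded 4.16, the 25th percentile, on at least 2 of the 12 arrays. Differences were fitted with limma 3.58.1 (lmFit, eBayes with trend) in R 4.3.3 on genotype and treatment, with Benjamini-Hochberg adjustment at 0.05. The fit was also run on simulated data with independent tumours and no difference between the LAKTP lines. It therefore does not check the error rate where lines of a genotype differ. Figures were drawn with matplotlib 3.10.9. Samples were grouped by organoid, genotype and treatment labels, and replicates were numbered in accession order. The named genes were the 15 largest rises and the falls that held, the members of smallest p of 43 gene lists, and a few genes always given; Cd82, Junb, the other genes that held and those that passed without holding were named after their values were seen. The comparison and lists were chosen with earlier results of these data known. Alternatives covered filters, probe set choice, centring, normalization, weights, covariates, line as a block and omission of each tumour. A few genes are not reported here.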

Additional observations from a re-analysis of the deposited data

Results flagged for a closer look

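In 154 groups of 4 or 8 values, 11 had a highest or lowest tumour far from the rest, where chance flags about 1 in 20 groups. The first LAKP control tumour stood apart in 6. It was the highest LAKP tumour for Lama3, at 11.06 against 10.05 for the nearest, for the pericyte level, at 1.10 against 0.47, for the macrophage level, at 0.40 against -0.03, and for the handling stress level, at 0.82 against 0.23. Its Wnt target level of -0.53 was the lowest, with -0.42 the nearest, and the SD of its array was the highest, at 1.72 against 1.62.

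The second MTO68 control tumour stood apart among LAKTP tumours in 4. Its T cell level was the highest, at 0.41 against 0.14. Its epithelial level of -0.65, p53 target level of -0.41 and hypoxia level of -0.965 were the lowest, with nearest values of 0.05, -0.10 and -0.15. The first MTO68 galunisertib tumour had the lowest LAKTP value of Wnt7b, 4.98, with 5.72 the nearest.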

How the results depend on the processing

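All 31 genes that held kept their sign under every alternative run. Counts below are genes passing against both LAKTP lines (55 in the report), genes that held (31), passing against MTO68 (1466), against MTO93 (38), between MTO68 and MTO93 (2225), in control tumours (63) and in galunisertib tumours (101). Quantile normalization gave 219 passing, 51 held, 71 against MTO93, 179 in control and 157 in galunisertib tumours. Array weights gave 992 passing (652 higher, 340 lower), 379 held, 8545 against MTO68, 1996 against MTO93, 11177 between the LAKTP lines, and 4 and 2359 by arm. The SD of an array as covariate gave 1281 (635 higher, 646 lower), 100, 3352, 128, 752, 291 and 676. A mean for each line gave 403 passing (195 higher, 208 lower), all 20 arrays 914 (418 higher, 496 lower), MTO140 added to the LAKTP lines 89 (58 higher, 31 lower) and line as a random block 2.

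Covariates chosen after seeing the data also moved the counts. The fibroblast level gave 18 passing, 17 held, 3346 against MTO68, 5466 between the LAKTP lines, and 122 and 2387 by arm. The epithelial level gave 14 held, 17 against MTO93, 4715 between the LAKTP lines and 189 in galunisertib tumours. The handling stress level gave 384 passing (128 higher, 256 lower), 9 held, 8866 against MTO68, 12 against MTO93, 5883 between the LAKTP lines, and 18 and 3591 by arm. The type I interferon level gave 2 passing and 2 against MTO93, and 0 for the other 5 counts. The cause of these changes was not tested.

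Omitting 1 tumour at a time gave 3 to 81 passing, 2 to 65 held, 468 to 7542 against MTO68, 3 to 479 against MTO93, 143 to 10006 between the LAKTP lines, 11 to 1782 in control tumours, 1 to 1251 in galunisertib tumours and 0 to 1909 for the difference between arms. No paired analysis was possible because the replicate numbers follow accession order only.

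The genes that changed sign were not called in the report. Myh4 was -0.002572 with another probe set. Xist was 0.003614 with median centring, 0.02912 with MTO140 added, 0.1261 and 0.3274 with the fibroblast and handling stress levels, and ran from -0.09728 to 0.04241 over the omissions. Avil was 0.06391 with weights and 0.5325 with the interferon level, and Apc 0.03605 and 0.3855. Cdkn2a was -0.1208 with the fibroblast and -0.4327 with the stress level, and -0.02288 to 0.139 over the omissions. With the stress level Nnt was -0.004573, Smad7 -0.5476, Apoe -0.01964, Ngp 0.01545, Igfbp3 -0.1229 and Tgfbr1 -0.1049. Over the omissions Nnt ran from -0.05888 to 0.07567 and Smad7 from -0.05849 to 0.361. With the interferon level Gzma was 0.6276, Cdkn1c 0.4953, Lgr5 0.09389 and Prox1 0.2342.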

Other observations

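Neutrophil genes were lower in mean for 12 of 13 in LAKP (52.8% of all genes were), with a median difference of -0.15. Ltf, the neutrophil granule protein lactoferrin, measured 7.42, 7.58, 7.24 and 7.33 in LAKP and 7.65 to 11.39 in LAKTP, without overlap, and did not pass (difference -2.55, SE 0.55, limma adjusted p = 0.0807). Squamous keratins varied widely among LAKP tumours. Krt6a measured 9.37, 5.33, 8.23 and 9.31, and Krt14 9.49, 6.12, 7.87 and 8.91, so the second control tumour was low for both. Their differences of 2.37 and 2.07 did not pass (limma adjusted p = 0.157 and 0.124).

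Among RAS-ERK output genes, 13 of 16 had a higher mean (47.2% of all genes did) and none passed. Dusp4, a phosphatase that restrains ERK, measured 9.02, 8.38, 8.13 and 8.74 in LAKP against 5.28 to 7.87. Etv5, an ETS factor, differed the other way, by -1.61, with overlap.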
